A study of Homo sapiens with 12 samples.

Results

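The 45 genes described here encode proteins of autophagy and of the lysosome, from the transcription factors that switch the pathway on to the enzymes inside the lysosome. They were taken by gene symbol from the 60612 gene rows of the count table, whatever their counts, and each of the 45 symbols was found. Of these, 44 were among the 17779 genes with enough counts to be tested. The exception was ULK2, which had 0 counts in each of the 12 libraries.

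The study exposed HepG2, an established line of human liver cancer cells, to 2,4-D, a synthetic auxin used as a herbicide, at 0.001 µM. The 4 groups of 3 biological replicates were untreated cells (0 min) and cells exposed for 10, 30 or 360 min. Polyadenylated RNA was sequenced. No untreated cells were collected at the later times, so exposure and elapsed time cannot be told apart.

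Autophagy wraps cell contents in a double membrane, the phagophore, which closes into an autophagosome and fuses with the lysosome for degradation. The ULK kinase complex starts the process, a class III phosphatidylinositol 3-kinase marks the growing membrane, and ubiquitin-like ATG8 proteins (LC3 and the GABARAPs) are attached to it. TFEB, TFE3 and MITF bind short DNA elements in promoters of lysosomal genes, and the folliculin and Rag GTPases on the lysosome tie these factors to amino acid supply. In liver cells autophagy is known for supplying nutrients in fasting and for clearing damaged organelles.

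Library totals, in units of 1e6 counts, ran from 29.8 to 83.5. A floor of 3 counts was therefore equal to 0.0359 to 0.101 CPM (counts per 1e6 counts, scaled between libraries), which allows for counting error alone. The hepatocyte markers matched the label of the cell line (ALB averaged 8543 CPM at 0 min), while PTPRC of blood cells and DCN of fibroblasts had 0 counts in every library. The 10 hepatocyte markers summed to 28495 to 30923 CPM at 0 min and to 31865 to 32987 CPM at 360 min. Of these, 3 were called higher, beside 8.89% of all genes. Their log2 fold changes ran from -0.14 to 0.31, with 4 of the 10 below 0. The fibroblast and endothelial markers summed to 4.14 to 4.85 CPM at 0 min and to 3.58 to 3.99 CPM at 360 min. Of 3 tested, 1 was called lower, beside 9.19% of all genes. The myeloid markers, nearly all of it LYZ, summed to 1849.7 to 1963 CPM and 1832 to 1916 CPM. None of 4 was called, beside 18.1% of all genes. The mitochondrial share of counts was 3.55 to 4.39% in 7 libraries and 2.52 to 2.74% in 5, with both kinds present at 0, 30 and 360 min. The immediate early gene FOS was at 14.1 CPM in untreated replicate 1 but at 106 and 136 CPM in the other untreated libraries. The part of these differences in the results was not tested, except where a value without a library, or with a term for the mitochondrial share, is given.

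Levels per length, in CPM per kilobase of exon at 0 min, spread widely across the 45 genes. CTSD, an aspartic protease of the lysosome, stood highest at 155 ± 1.2 (SD, n = 3), followed by the cysteine protease CTSB at 126 ± 5.6. Next came CTSA, the protective protein of lysosomal sialidase, at 81.1 ± 2.5, the membrane protein LAMP1 at 54.2 ± 1.5 and the sialidase NEU1 at 48.9 ± 1.2. The groups of 3 values of these 5 genes lay further apart than their SDs. The highest autophagosome gene was GABARAP at 35.4 ± 1.9. At the low end, the regulator TFEB stood at 1.43 ± 0.13, below FLCN (2.58 ± 0.14), FNIP1 (2.89 ± 0.14) and RRAGC (2.90 ± 0.17), with FNIP1 and RRAGC within 1 SD of each other. The length is that of all annotated exons of a gene joined, 9.79 kb for FLCN and 5.17 kb for RRAGC. The order depends on it, and in CPM without length FLCN stood above RRAGC. MITF and RRAGD were near the floor, at 3 to 23 and 0 to 33 counts per library.

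**Figure D1:**
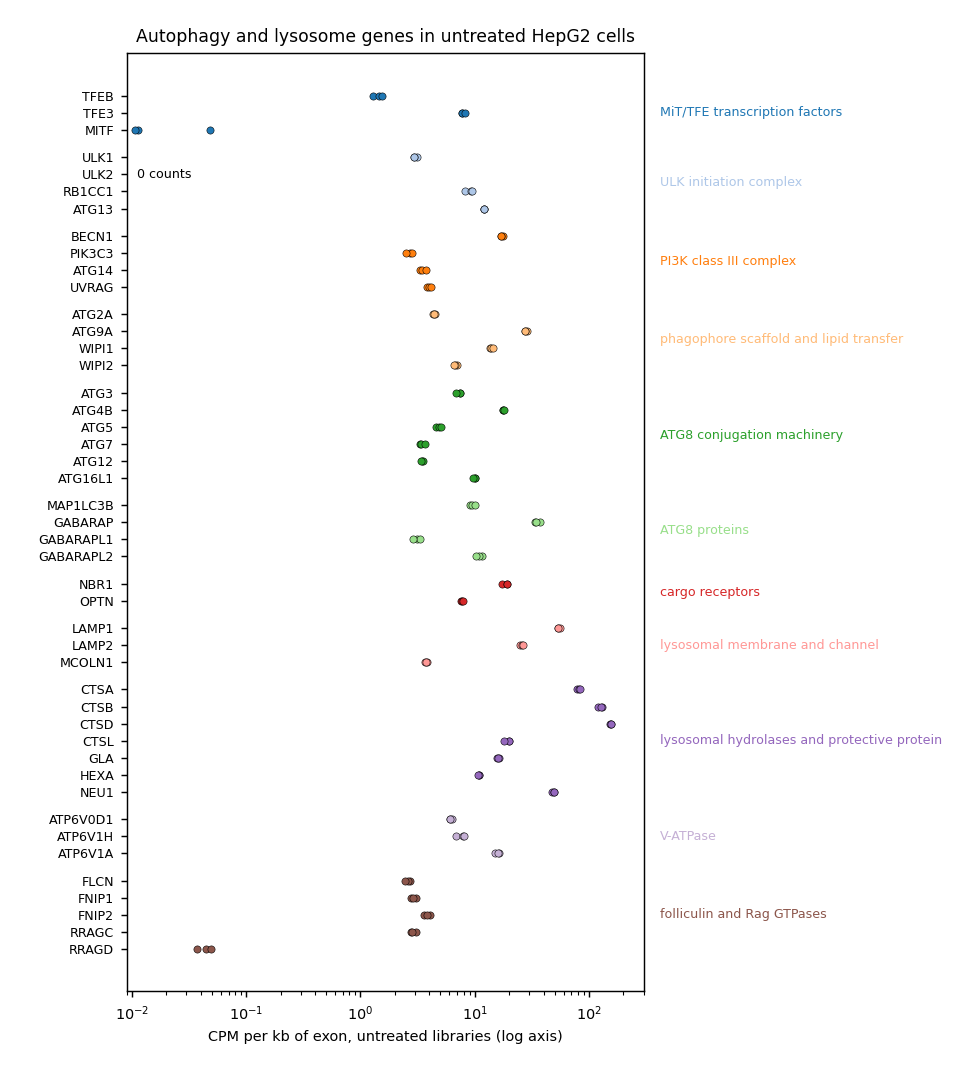
Level of each of the 45 genes in untreated cells, in CPM per kilobase of exon on a log axis, grouped by role, with 1 point for each of the 3 untreated libraries. The proteases CTSD and CTSB lie highest and MITF and RRAGD are lowest, with ULK2 marked as having 0 counts.

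At 10 and 30 min none of the 44 tested genes passed the test against 0 min. By edgeR's quasi-likelihood test with Benjamini-Hochberg adjustment over all genes, 0 of 44 were called at 10 min, where 0.0169% of all genes were called, and 0 of 44 at 30 min, where 0.765% were. An unadjusted p under 0.05 was found for 5 members at 10 min, against 10.9% of all genes, and for 2 at 30 min, against 9.29% of all genes. DESeq2 and limma voom also called 0 at both times. The median log2 fold change of the members was 0.02 at 10 min and -0.0005 at 30 min, beside -0.003 and 0.003 over all genes tested. Between 10 and 30 min, 0 of 44 were called, where 0.574% of all genes were, and 8 had an unadjusted p under 0.05, against 11.9% of all genes.

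The smallest p-values at 10 min belonged to OPTN, CTSB and HEXA. OPTN, a receptor that brings ubiquitin-tagged cargo to autophagosomes, had 38.6, 39.9 and 40.5 CPM at 0 min and 45.04, 41.9 and 43.0 CPM at 10 min, a log2 fold change of 0.13 (SE 0.04, adjusted p = 0.30). CTSB had 889, 969 and 946 CPM at 0 min and 1009.8, 1011 and 986 CPM at 10 min (0.10, SE 0.03, adjusted p = 0.32). HEXA, a subunit of the hexosaminidase that degrades gangliosides, had 139, 136 and 134 CPM at 0 min and 143, 142 and 143 CPM at 10 min (0.07, SE 0.03, adjusted p = 0.38). In each of these 3 genes the groups did not overlap and the difference did not pass the test across all genes. Groups without overlap were found for 10 of the 44 members at 10 min, beside 15.5% of all genes.

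At 30 min the smallest p-values belonged to TFE3, GABARAPL2 and ATG14. TFE3 had 33.2, 33.2 and 34.9 CPM at 0 min and 30.6, 29.7 and 31.2 CPM at 30 min (-0.15, SE 0.04, adjusted p = 0.12). GABARAPL2, an ATG8 protein, had 34.8, 33.2 and 31.1 CPM at 0 min and 29.2, 30.9 and 31.8 CPM at 30 min (-0.11, SE 0.05, adjusted p = 0.48). ATG14, which directs the class III kinase to autophagy, had 16.8, 17.5 and 19.0 CPM at 0 min and 16.2, 17.5 and 14.3 CPM at 30 min (-0.15, SE 0.08, adjusted p = 0.63). The TFE3 groups did not overlap and those of the other two genes did.

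After 360 min, 5 genes rose and 5 fell. Those that rose were RRAGC, FNIP1, ATP6V1A, ATG2A and GLA, and those that fell were WIPI1, GABARAPL1, TFEB, OPTN and CTSB. These 10 of 44 are 22.7%, beside 18.1% of all genes tested, with 11.4% higher, beside 8.89% of all genes, and 11.4% lower, beside 9.19%. The share called was thus near the background in both directions. The changes were modest, with a median size of 0.23 on the log2 scale over the 10, beside 0.26 over all genes called. The median over the 44 was 0.01, beside 0.0005 over all genes. An unadjusted p under 0.05 was found for 13 of the 44, beside 30.5% of all genes. The 360 min libraries did not overlap the untreated ones in 17 of the 44, the 10 called genes among them, beside 35.6% of all genes. Log2 fold changes given below are for 360 against 0 min.

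The count of 10 depended on single libraries. It was 6, 4 and 5 without untreated replicate 1, 2 or 3, and 7, 5 and 5 without 360 min replicate 1, 2 or 3. With untreated replicate 1 as the only untreated library, 3 members were called, namely WIPI1, ATP6V1A and RB1CC1. That comparison assumes that the lone untreated library varies like the exposed groups. It was 5 with no filter on low counts and 6 with the compared groups alone, and stayed at 10 with a term for the mitochondrial share. TFEB, OPTN, GLA and CTSB were called neither with no filter nor with the compared groups alone, ATG2A was not called with no filter, and CTSB was also not called with the replicate number as a block (adjusted p = 0.074). None of the 10 changed direction in any of the 18 alternatives run. Counts over all genes under these alternatives are not given beside those of the members. A general loss of calls is therefore not told apart from one particular to these genes.

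**Figure D2:**
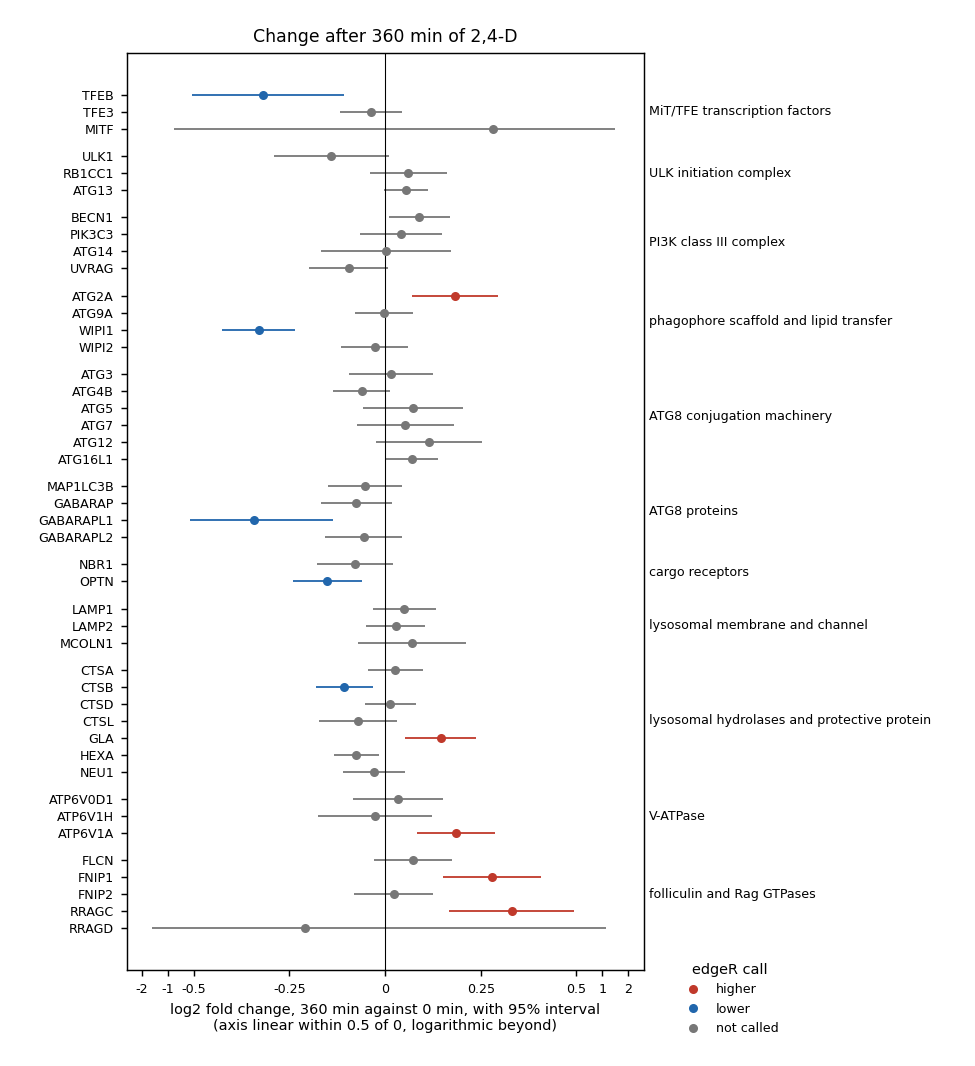
Log2 fold change at 360 min against 0 min for the 44 tested genes, by role, as a point with its 95% interval from edgeR; the axis is linear within 0.5 of 0 and logarithmic beyond. The 5 genes called higher and 5 called lower are coloured, and the wide intervals of MITF and RRAGD span 0.

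Among the transcription factors, TFEB fell, while TFE3 and MITF did not pass the test. TFEB (chromosome 6, 41683978 to 41736259, minus strand, GRCh38) had 7.34, 8.13 and 8.78 CPM at 0 min and 6.18, 6.07 and 7.17 CPM at 360 min. Every exposed library lay below every untreated one, though the highest exposed and the lowest untreated values were close. At 10 min it had 8.01 to 8.99 CPM and at 30 min 7.45 to 8.40 CPM, within or near the untreated range. TFEB fell by 0.32 (log2 scale, SE 0.10, adjusted p = 0.038). It was not called without untreated replicate 2 or 3 or without 360 min replicate 1 or 2 (adjusted p 0.092 to 0.14). TFE3, whose level per kilobase was the highest of the 3, had 33.4, 32.5 and 32.9 CPM at 360 min (-0.04, SE 0.04, adjusted p = 0.57). MITF, the melanocyte regulator of the family, had 0.0760 to 0.343 CPM at 0 min and 0.204 to 0.267 CPM at 360 min. Its interval, -0.84 to 1.40, shows that a change was not detectable at this depth.

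Of the folliculin and Rag GTPases, RRAGC and FNIP1 rose. RRAGC (chromosome 1, 38838198 to 38859823, minus strand) encodes the RagC GTPase, which with a RagA or RagB partner recruits mTORC1 to the lysosome and binds TFEB and TFE3. It had 15.9, 14.3 and 14.7 CPM at 0 min and 16.9, 19.3 and 20.3 CPM at 360 min. All 3 exposed libraries were above all untreated ones, replicate 1 of each group being nearest to the other. RRAGC rose by 0.33 (SE 0.08, adjusted p = 0.0084), a fold of 1.26. FNIP1 (chromosome 5, 131641714 to 131797063, minus strand) encodes a partner of folliculin, the GTPase activator for RagC and RagD. It had 24.2, 22.0 and 22.7 CPM at 0 min and 27.7, 27.9 and 27.9 CPM at 360 min. The exposed libraries lay close together and clear of the untreated ones. FNIP1 rose by 0.28 (SE 0.06, adjusted p = 0.0054), a fold of 1.21. Both were called in 17 of 18 alternatives, the exception being the comparison with untreated replicate 1 alone (RRAGC adjusted p = 0.20, FNIP1 adjusted p = 0.18).

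The partners of these genes were not called. The paralog FNIP2 had 38.7, 43.8 and 41.6 CPM at 0 min and 42.3, 42.8 and 41.1 CPM at 360 min (0.02, interval -0.08 to 0.13), and folliculin itself, FLCN, had 26.5, 25.4 and 23.9 CPM and 26.7, 25.7 and 27.2 CPM (0.07, interval -0.03 to 0.17). In both the groups overlapped. RRAGD, the RagD paralog of RRAGC, had 0.188 to 0.247 CPM at 0 min and 0.0592 to 0.277 CPM at 360 min, at or near the floor, with an interval of -1.51 to 1.10. The differences between paralogs were not tested.

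Promoters of lysosomal genes carry the CLEAR element, a site of the TFEB family whose core is the letters CACGTG. RefSeq promoter windows (GRCh38.p14, 250 bases before to 50 after the start) were found for 37 of the 45 genes. CACGTG, which reads the same on both strands, occurred in 10 of the 37 (27.0%), beside 7.26% of all 35116 windows and 10.2% of the 18116 count-table genes with a window. The 10 were RRAGC, FNIP1, LAMP1, MCOLN1, CTSD, CTSA, NEU1, ATP6V0D1, ATG3 and ATG14. The members were chosen as autophagy and lysosome genes, so a higher share than over all genes may come with that choice. The longer TCACGTG, searched on both strands and always overlapping CACGTG, occurred in the same 10. It was found in 3.71% of all windows and in 5.44% of the count-table genes with a window. The stretches shown are those of the risen pair and of 3 lysosomal genes that were not called, read 5′ to 3′ on the gene's strand with each CACGTG in capitals. They are RRAGC at chr1:38859833-38859912 (minus strand), FNIP1 at chr5:131797078-131797217 (minus strand), LAMP1 at chr13:113297039-113297118 (plus strand), MCOLN1 at chr19:7522564-7522623 (plus strand) and CTSD at chr11:1763928-1764007 (minus strand).
RRAGC: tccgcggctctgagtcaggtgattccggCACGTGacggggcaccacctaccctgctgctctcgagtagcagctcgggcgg
FNIP1: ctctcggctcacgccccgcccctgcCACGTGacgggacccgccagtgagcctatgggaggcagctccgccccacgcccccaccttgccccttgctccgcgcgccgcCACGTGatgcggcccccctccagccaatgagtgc
LAMP1: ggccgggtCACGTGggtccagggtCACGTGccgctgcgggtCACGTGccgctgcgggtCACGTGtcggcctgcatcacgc
MCOLN1: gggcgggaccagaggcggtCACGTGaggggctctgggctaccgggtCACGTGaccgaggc
CTSD: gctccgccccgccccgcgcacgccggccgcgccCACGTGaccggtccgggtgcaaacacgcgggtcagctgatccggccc
The RRAGC site began 112 bases before the start and the FNIP1 sites 175 and 94 bases before it. LAMP1 had 6 sites in its window, of which 4 are shown, MCOLN1 had 2 and CTSD 1. Of the 10 genes with the letters, 2 rose and none fell, with a median log2 fold change of 0.03. Of the 26 tested genes with a window but without the letters, 2 rose and 4 fell, with a median of -0.01. The 8 genes without a window could not be classed, and of these 1 rose (ATP6V1A) and 1 fell (CTSB). Of all genes tested, 8.89% rose and 9.19% fell, and the difference between the genes with and without the letters was not tested. A match describes the sequence only, and binding was not measured.

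The initiation machinery did not pass the test at 360 min. An unadjusted p under 0.05 was found for 0 of 3 ULK complex genes and 1 of 4 genes of the class III kinase complex, beside 30.5% of all genes. In the ULK complex, ULK1, the kinase, had 23.7, 22.3 and 22.3 CPM at 0 min and 21.3, 19.2 and 21.2 CPM at 360 min (-0.14, SE 0.07, adjusted p = 0.19). Its groups did not overlap, with the exposed libraries lower. Its paralog ULK2 (chromosome 17, 19770829 to 19867936, minus strand) had 0 counts throughout. The scaffold RB1CC1 and the adaptor ATG13 had log2 fold changes of 0.06 each. In the class III kinase complex, the core subunit BECN1 (0.09), the catalytic PIK3C3 (0.04), ATG14 (0.002) and UVRAG (-0.10), which directs the kinase to endosomes, were not called.

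On the phagophore, WIPI1 fell and ATG2A rose. WIPI1 (chromosome 17, 68420948 to 68457513, minus strand) encodes a protein that binds the lipid made by the class III kinase. It had 46.3, 46.8 and 49.6 CPM at 0 min and 38.5, 37.9 and 37.1 CPM at 360 min. The 3 exposed libraries lay well below the untreated ones, while the 10 min (48.0 to 54.1 CPM) and 30 min (48.0 to 49.1 CPM) libraries did not. WIPI1 fell by 0.33 (SE 0.04, adjusted p = 0.00026), to 0.795 of the untreated level, and was called in all 18 alternatives. ARSG, a gene on the opposite strand that overlaps WIPI1, averaged 11.9 CPM and was not called (0.11, adjusted p = 0.61). ATG2A (chromosome 11, 64894546 to 64917248, minus strand) encodes a protein that transfers lipids into the growing membrane. It had 35.1, 34.2 and 34.7 CPM at 0 min and 39.1, 38.1 and 40.6 CPM at 360 min, with no overlap. ATG2A rose by 0.18 (SE 0.05, adjusted p = 0.027), but was not called without any one of the untreated libraries or without 360 min replicate 1 or 3 (adjusted p 0.051 to 0.10). The paralog WIPI2 (-0.03) and the lipid scramblase ATG9A (-0.003) were not called.

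All 4 ATG8 proteins had log2 fold changes below 0, and GABARAPL1 was the one called. GABARAPL1 (chromosome 12, 10212458 to 10223130, plus strand) had 12.6, 13.6 and 11.7 CPM at 0 min and 10.5, 9.63 and 9.74 CPM at 360 min. The exposed libraries were lower with no overlap, and the spread among the untreated ones was wider than among the exposed. GABARAPL1 fell by 0.34 (SE 0.10, adjusted p = 0.024). It was not called without untreated replicate 1 or 2 or without 360 min replicate 2 or 3 (adjusted p 0.054 to 0.099). GABARAP had 85.1, 76.7 and 78.7 CPM at 0 min and 75.7, 74.8 and 77.5 CPM at 360 min (-0.08, interval -0.17 to 0.02). GABARAPL2 (-0.06, interval -0.16 to 0.04) and MAP1LC3B, which encodes LC3B (-0.05, interval -0.15 to 0.04), also had groups that overlapped. Counts of MAP1LC3B may share reads with its near copy MAP1LC3B2, which had 827 counts beside 30259 over the 12 libraries.

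None of the 6 genes that attach ATG8 proteins to the membrane was called, and 1 had an unadjusted p under 0.05, beside 30.5% of all genes. They are the E1-like ATG7, the E2-like ATG3, the protease ATG4B, the ubiquitin-like ATG12 and its partners ATG5 and ATG16L1. Their log2 fold changes ran from -0.06 (ATG4B) to 0.11 (ATG12), and 5 of 6 were above 0. Of the cargo receptors, OPTN (chromosome 10, 13099449 to 13138308, plus strand) had 38.6, 39.9 and 40.5 CPM at 0 min and 37.1, 36.0 and 34.1 CPM at 360 min. The exposed libraries were below the untreated ones by little. OPTN fell by 0.15 (SE 0.04, adjusted p = 0.023). It was not called without untreated replicate 2 or 3 or without 360 min replicate 3 (adjusted p 0.067 to 0.089). NBR1, a second ubiquitin-binding receptor, had 147, 159.5 and 160.3 CPM and then 151, 146 and 145 CPM (-0.08, adjusted p = 0.27), with overlap.

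Within the lysosome, 1 hydrolase gene rose and 1 fell of 7, beside 8.89% of all genes higher and 9.19% lower. GLA (chromosome X, 101397803 to 101408012, minus strand), the alpha-galactosidase deficient in Fabry disease, had 35.8, 37.0 and 36.3 CPM at 0 min and 38.8, 41.9 and 40.2 CPM at 360 min, with no overlap. GLA rose by 0.15 (SE 0.04, adjusted p = 0.032), but was not called without any one of the untreated libraries or without 360 min replicate 2 or 3 (adjusted p 0.057 to 0.15). CTSB had 877, 858 and 868 CPM at 360 min, below its untreated libraries, of which replicate 1 came nearest. CTSB fell by 0.11 (SE 0.03, adjusted p = 0.047), the smallest change and the highest adjusted p of the 10. It was not called without untreated replicate 2 or 3 or without any one of the 360 min libraries (adjusted p 0.088 to 0.17), and against untreated replicate 1 alone its change was -0.03 (adjusted p = 0.66). HEXA had 129, 130.3 and 129 CPM at 360 min, below all untreated libraries, and did not pass (-0.08, adjusted p = 0.072). CTSD (0.01), CTSA (0.03), NEU1 (-0.03) and the cysteine protease CTSL (-0.07) were not called either.

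The lysosomal membrane genes LAMP1, LAMP2 and MCOLN1, the last a calcium channel, had log2 fold changes of 0.05, 0.03 and 0.07, none of them called. Of the V-ATPase, the pump that acidifies the lysosome, ATP6V1A rose. ATP6V1A (chromosome 3, 113747019 to 113812056, plus strand), the catalytic subunit, had 76.8, 83.2 and 81.3 CPM at 0 min and 91.9, 94.4 and 88.3 CPM at 360 min. The groups did not overlap, and the lowest untreated value was that of replicate 1. ATP6V1A rose by 0.19 (SE 0.05, adjusted p = 0.016). Without untreated replicate 1 its adjusted p was 0.075 and without 360 min replicate 2 it was 0.084. The subunits ATP6V0D1 (0.03) and ATP6V1H (-0.03) were not called.

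**Figure D3:**
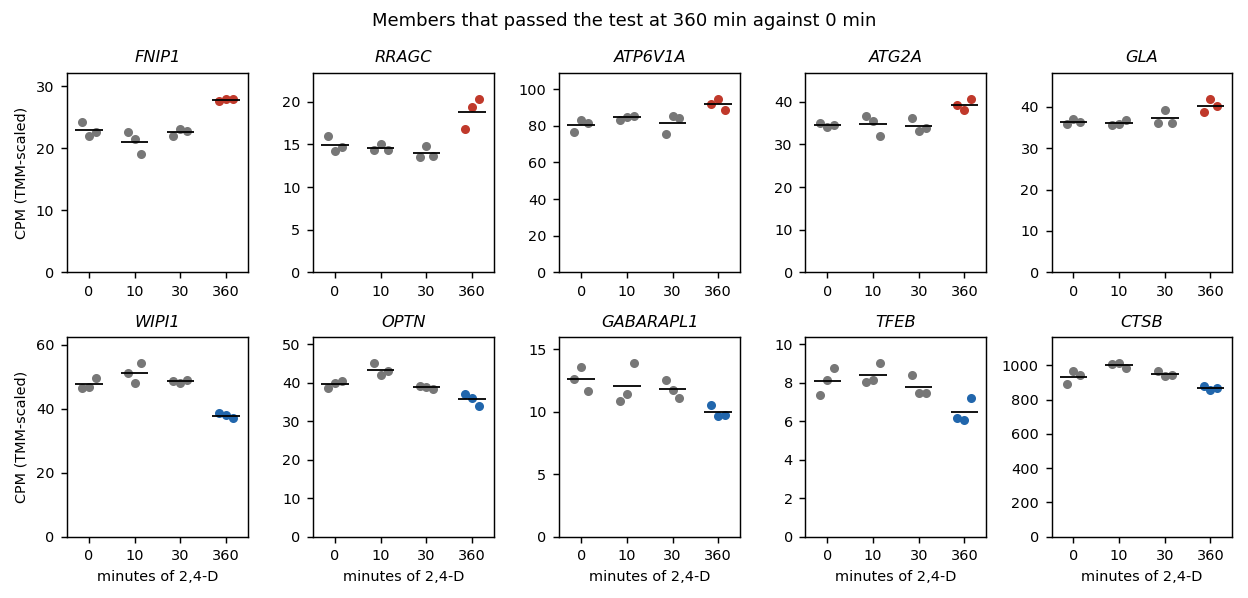
TMM-scaled CPM of the 10 called genes in each of the 12 libraries, 1 panel per gene, by exposure time in min, with the 3 libraries of a group as points and their mean as a black line. The 360 min points lie wholly above (5 genes) or below (5 genes) the 0 min points.

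The other time comparisons share libraries with those against 0 min and are given beside them. From 30 to 360 min, 10 of 44 were called (22.7%), beside 22.7% of all genes, with 7 higher (15.9%, beside 11.4% of all genes) and 3 lower (6.82%, beside 11.3%). From 10 to 360 min, 14 of 44 were called (31.8%), beside 25.6% of all genes, with 7 higher (15.9%, beside 12.9%) and 7 lower (15.9%, beside 12.7%). WIPI1 went from 51.2, 48.0 and 54.1 CPM at 10 min to the 360 min values above, a fall by 0.43 (SE 0.05), and from 30 min it fell by 0.36 (SE 0.04). RRAGC had 14.3, 15.1 and 14.4 CPM at 10 min and 13.5, 14.9 and 13.7 CPM at 30 min, and rose by 0.37 (SE 0.08) and 0.43 (SE 0.08) from these times. FNIP1 had 22.7, 21.5 and 19.1 CPM at 10 min and 22.0, 23.1 and 22.8 CPM at 30 min, and rose by 0.40 and 0.30 (SE 0.06 each). In these 3 genes the 360 min libraries lay outside those of every other time. Groups without overlap were common, at 35.6% of all genes against 0 min, 39.8% against 30 min and 41.0% against 10 min.

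A wider list of 94 other autophagy and lysosome genes, of which 90 were tested, held 4 higher and 8 lower genes at 360 min, 13.3%, beside the 18.1% of all genes called. At 10 and 30 min none of the 90 was called, beside 0.0169% and 0.765% of all genes. An unadjusted p under 0.05 was found for 12 and 7 of the 90, beside 10.9% and 9.29% of all genes. BNIP3L had the smallest adjusted p of the 90 at 10 min (log2 fold change 0.31, SE 0.05, adjusted p = 0.11). BNIP3 was also higher at that time (0.21, SE 0.04, adjusted p = 0.12). The groups of both genes did not overlap. At 10 min 59 of the 90 had log2 fold changes above 0 and 31 below 0. At 360 min the cargo receptors on this list had 3 higher and 1 lower of 10, beside 8.89% of all genes higher and 9.19% lower. NCOA4, the receptor for ferritin, had 463, 515 and 515 CPM at 0 min and 561, 574 and 559 CPM at 360 min (0.18, SE 0.04, adjusted p = 0.0062). SQSTM1, which encodes p62, had 341, 336 and 320.4 CPM and then 362, 361 and 369.7 CPM (0.13, SE 0.03, adjusted p = 0.010), and TOLLIP had 52.0, 53.7 and 52.5 CPM and then 58.7, 55.7 and 60.6 CPM (0.15, SE 0.04, adjusted p = 0.015). In all 3 the exposed libraries were the higher ones. CALCOCO2, which encodes the receptor NDP52, had 57.2, 57.1 and 58.5 CPM at 0 min and 52.7, 49.1 and 52.9 CPM at 360 min (-0.16, SE 0.03, adjusted p = 0.0068), opposite to these.

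The other hydrolases had none higher and 4 lower of 28, and the other lysosomal membrane genes 1 higher and 3 lower of 12, beside 8.89% of all genes higher and 9.19% lower. NPC1, which exports cholesterol from the lysosome, had 126, 131 and 131 CPM at 0 min and 111, 112 and 119.6 CPM at 360 min (-0.18, SE 0.04, adjusted p = 0.0038). The exposed libraries of NPC1 were lower with no overlap. None of the 20 other core autophagy genes, 13 other V-ATPase subunits or 7 other Rag and Ragulator genes was called, and 2, 5 and 0 of them had an unadjusted p under 0.05, beside 30.5% of all genes. In bulk RNA, fewer cells of a kind and less RNA per cell cannot be told apart, which holds for every fall given here.

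**Figure D4:**
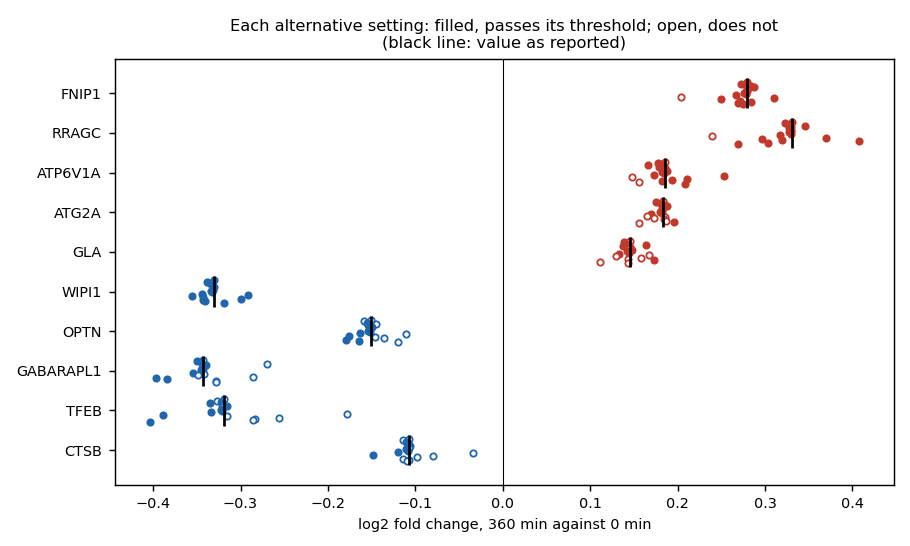
Log2 fold change at 360 min against 0 min of the 10 called genes as given in the text (black line) and under each of the 18 alternatives (points); filled points were called and open points were not. WIPI1 is called throughout, RRAGC and FNIP1 in all but 1 alternative, and no gene crosses 0.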

How the data were processed

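Polyadenylated RNA of 12 HepG2 libraries was sequenced. The deposited table holds raw read counts for each gene. The submitters' processing notes name the GRCh38 build, HISAT2 and DESeq2. Not given in the sources used here are the tools' versions, the counting program, the annotation and whether strand was used, so counts of genes overlapping on opposite strands are uncertain. Positions and exon lengths were taken from GENCODE 29.

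The counts were tested with edgeR 4.0.16 (R 4.3.3, limma 3.58.1): filterByExpr by group, TMM scaling (factors 0.981 to 1.014), and a quasi-likelihood fit over all 12 libraries with 8 residual degrees of freedom and a biological coefficient of variation of 9.72%. A gene was called at a two-sided Benjamini-Hochberg adjusted p under 0.05 over the 17779 genes tested. SE is the log2 fold change divided by the square root of F. CPM is TMM-scaled. The p-values measure the spread between the labelled biological replicates, which takes in the library differences given above. The script was tested on simulated data of independent counts. The recovery of changes in that run is not reported, so it gives no support to calls of the size found here.

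Values per library are given for members called against 0 min, for the 3 smallest p at 10 and 30 min and for paralogs, and, of the other pathway genes, for the 3 smallest p in each direction at 360 min among those called. A gene under this rule is not reported here. Members and lists were chosen with earlier results of these data known. Alternatives were DESeq2 1.42.0, limma voom, other scalings and filters, the compared groups alone, a replicate block, a mitochondrial term, a threshold of 0.01 and the omission of each library. Thinned libraries and untreated replicate 1 alone were added after seeing the data.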

Additional observations from a re-analysis of the deposited data

Results flagged for a closer look

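The change at 360 min was compared with the change at 30 min and at 10 min. Both are taken against the same untreated libraries, so the difference is the direct comparison of the later with the earlier libraries, and a gene is listed where it passed edgeR's quasi-likelihood test with Benjamini-Hochberg adjustment. Values are differences on the log2 scale.

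Against 30 min, 7 genes were higher at 360 min: RRAGC (0.43), FNIP1 (0.30), ATG2A (0.19), ATP6V1A (0.17), FLCN (0.16), ATG16L1 (0.12) and TFE3 (0.11). Lower were WIPI1 (-0.36), CTSB (-0.13) and HEXA (-0.093). Adjusted p ran from 0.00010 (WIPI1) to 0.046 (TFE3). Without 30 min replicate 1 or 3 the count of 10 was 5 or 6, and without 360 min replicate 3 it was 6.

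Against 10 min, 7 genes were higher at 360 min: FNIP1 (0.40), RRAGC (0.37), ATG12 (0.20), ATG2A (0.18), BECN1 (0.17), GLA (0.16) and ATG16L1 (0.12). Lower were WIPI1 (-0.43), TFEB (-0.37), OPTN (-0.28), CTSB (-0.21), NBR1 (-0.17), HEXA (-0.14) and GABARAP (-0.14). Adjusted p ran from 2.5e-05 (WIPI1) to 0.038 (ATG12). The genes listed as lower all stood higher at 10 min than at 0 min, by 0.05 (TFEB) to 0.13 (OPTN). Those listed as higher stood lower at 10 min than at 0 min, except ATG2A (0.005). None of these 10 min changes passed the test. Differences from 10 min therefore exceed those from 0 min in size, except for ATG2A.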

How the results depend on the processing

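At 360 against 0 min, 10 members were called. The count was 3 at an adjusted p under 0.01, 6 with the compared groups alone, 5 with no filter, 3 with untreated replicate 1 as the only untreated library, and 4 to 7 when each library was left out in turn. DESeq2, limma voom, RLE scaling and the mitochondrial term each gave 10, total-count scaling and the stricter filter 11, and thinned libraries 8. At 360 against 30 min the 10 calls became 3 at an adjusted p under 0.01, 4 with no filter, and 5 to 8 with each library left out. At 360 against 10 min the 14 calls became 7 at an adjusted p under 0.01. The counts here are of members alone, without those over all genes under the same settings.

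With a replicate block the counts were 9 at 360 against 0 min, 9 against 30 min and 15 against 10 min. The block was not used for the results, since no label says that a number marks a shared batch, and libraries with the same number deviated together with a correlation over 0.1 in 2 of 18 pairs. As a hint from the data towards pairing, 7 of 12 libraries correlated best with their own number. The hint is weak, as correlations ran from -0.14 to 0.14 for the same number. They ran from -0.17 to 0.18 between libraries of other groups and other numbers. At 10 against 0 min, 30 against 0 min and 30 against 10 min, 0 members were called under every alternative run. Adjusted p of the 10 genes reached 0.66 (CTSB) at most and 0.017 for WIPI1. Depth limits MITF and RRAGD most.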

Other observations

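ULK2 had 0 counts in all 12 libraries, while its neighbours on chromosome 17 were counted: ALDH3A2 had 114849 counts in all, ALDH3A1 2223, AKAP10 13285 and SPECC1 7549. The related kinase gene ULK3 had 29.7 to 36.0 CPM. Whether the 0 is of the cells or of the counting was not tested.

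The 45 genes together made up 4365, 4527 and 4489 CPM at 0 min, 4689, 4616 and 4562 CPM at 10 min, 4502, 4474 and 4456 CPM at 30 min, and 4416, 4396 and 4441 CPM at 360 min. All 10 min libraries stood above the untreated ones, although none of the members was called at that time. The 10 min libraries were also the 3 with the smallest totals, had a mitochondrial share of 3.55 to 3.87%, and had hepatocyte markers summing to 31529 to 32010.4 CPM, above the 28495 to 30923 CPM at 0 min. The part of these in the sums was not tested. These sums follow the most abundant genes, of which CTSB alone had 858 to 1011 CPM.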
